A study of Mus musculus with 2 samples.

Results

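The genes described here make cholesterol and control its amount in the cell. They are 30 genes, taken by name from the 55246 rows of the deposited gene table: 19 enzymes of synthesis, 5 regulators of the pathway and 6 genes of sterol transport and storage. All 30 were present, each in 1 row, and all 30 had the 10 reads over both libraries needed for comparison, as did 17363 genes in all. The table comes from RNA sequencing of Treg cells, the Foxp3-dependent CD4 T cells that restrain immune responses, isolated from the layer of connective tissue beneath the epithelium of the colon (lamina propria). One group was wild type (WT) and the other, labelled Exon2KO, carried a Foxp3 allele without exon 2, written Foxp3∆2 in the series title. Both came from female mice, with 1 library each. The labels give no age, strain, treatment or sorting scheme, and do not say whether a library came from 1 mouse or from a pool.

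Cells build cholesterol from acetyl-CoA through mevalonate, which also supplies the isoprenoids that anchor small GTPases to membranes. When sterols in the endoplasmic reticulum run low, SCAP carries the SREBP transcription factors to the Golgi, where they are cut and released to switch on the enzymes of synthesis; INSIG proteins hold the complex back when sterols are plentiful. Excess sterol is exported by ABC transporters, whose genes are driven by liver X receptors, or is stored as esters. In Treg cells the mevalonate pathway is known to be needed for proliferation and suppressive function.

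Neither genotype has a replicate, so the variation among samples of a genotype is unknown and no p-value was computed. Depth was 16281133 reads in WT and 15412425 in Exon2KO. Log2 ratios are Exon2KO over WT after TMM library scaling, with a prior count of 2. The 95% intervals beside them (exact, Clopper-Pearson) cover counting error only. They treat reads as independent, and are too narrow where several reads stem from 1 molecule. A gene is said to have risen or fallen only where its ratio passed 2-fold or, where stated, 1.5-fold. Foxp3 had 6991 reads in WT and 20946 in Exon2KO, which does not check the deletion, because reads were counted over the whole gene. The T cell markers were present in both libraries, with a sum over 7 genes of 3910 CPM (reads relative to the TMM-scaled depth) in WT and 3232 in Exon2KO. Other cells were present too: the B and plasma cell markers summed to 8605 and 8131 CPM, the myeloid markers to 44.7 and 54.0, and the epithelial markers to 91.7 and 468. In such bulk samples, fewer cells of a type and less RNA per cell cannot be told apart.

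Most sterol genes differed little between the libraries. Only Abca1, a cholesterol exporter, passed 2-fold, and it was lower in Exon2KO; over all compared genes 8.14% were at least 2-fold lower and 9.38% at least 2-fold higher. Mvk, which encodes mevalonate kinase, was the other gene past 1.5-fold, also lower. That made 2 of 30 genes at least 1.5-fold lower and 0 of 30 higher, against 15.2% and 16.8% of all compared genes. Of the 12730 genes with at least 50 reads, which 29 of the 30 sterol genes have, 5.38% were at least 2-fold lower and 5.11% higher, and 11.7% and 10.9% were so by 1.5-fold. The remaining 28 genes lay within 0.5 of 0 on the log2 scale. The median log2 ratio was 0.01 for the 30 genes and 0.0045 for all compared genes. Their median size of difference, regardless of sign, was 0.22, against 0.34 for all compared genes and 0.27 for those with at least 50 reads.

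Promoter sequences from RefSeq (GRCm38.p6) are shown for 4 genes, upstream of the annotated start, 5′ to 3′ on the gene's strand. Hmgcs1 is shown as the carrier of a sterol response letter pattern, Mvk as the enzyme gene that fell, Ebp as an abundant enzyme gene at nearly the same level in both libraries, and Abca1 as the transporter that fell. Capitals mark CCAAT or its reverse complement ATTGG, the letters of the box bound by NF-Y, and in Hmgcs1 also the match to TCACNCCAC, a sterol regulatory element pattern.
Hmgcs1: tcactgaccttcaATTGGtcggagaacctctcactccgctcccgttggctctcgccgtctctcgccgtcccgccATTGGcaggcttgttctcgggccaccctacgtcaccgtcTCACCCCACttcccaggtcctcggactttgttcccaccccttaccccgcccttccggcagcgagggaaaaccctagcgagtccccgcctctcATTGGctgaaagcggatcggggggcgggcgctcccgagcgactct
Mvk: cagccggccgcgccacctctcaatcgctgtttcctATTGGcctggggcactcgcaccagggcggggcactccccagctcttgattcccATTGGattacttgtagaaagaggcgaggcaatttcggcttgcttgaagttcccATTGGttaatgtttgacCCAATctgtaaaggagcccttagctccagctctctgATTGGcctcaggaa
Ebp: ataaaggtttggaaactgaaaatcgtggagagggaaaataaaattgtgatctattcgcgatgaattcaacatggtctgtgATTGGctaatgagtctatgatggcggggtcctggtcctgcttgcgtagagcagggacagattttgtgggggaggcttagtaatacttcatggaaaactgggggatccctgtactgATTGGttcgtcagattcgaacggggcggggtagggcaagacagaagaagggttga
Abca1: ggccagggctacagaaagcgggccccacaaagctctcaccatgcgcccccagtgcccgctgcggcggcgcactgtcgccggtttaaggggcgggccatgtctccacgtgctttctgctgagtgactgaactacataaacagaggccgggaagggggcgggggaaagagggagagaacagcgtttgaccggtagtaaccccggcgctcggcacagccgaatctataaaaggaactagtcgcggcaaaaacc
They lie at chr13:119690101-119690350 on the plus strand for Hmgcs1, chr5:114444061-114444268 on the plus strand for Mvk, chrX:8193513-8193762 on the minus strand for Ebp and chr4:53159896-53160145 on the minus strand for Abca1.

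Promoter windows were found for 24 of the 30 genes, 32 windows in all since some genes have several starts, and the 250 bases upstream of the start were searched on both strands. CCAAT was in 22 of the 32 windows (68.8%) and in 33.8% of the 32851 windows of all genes. GGGCGG, the GC box letters, was in 24 of 32 and in 32.7% of all windows. TCACNCCAC was in 1 window, that of Hmgcs1, and in 1.05% of all windows. No matches of different patterns overlapped in these windows. The Mvk stretch printed here held 5 CCAAT boxes in 208 bases and the Abca1 stretch 0 in 250. The windows of all genes were not limited to genes with reads here, so an excess over them need not be particular to sterol genes. Only 1 sterol pattern was searched, and Sqle, Fdps and Fdft1 are among the genes without a window. These are matches of letters and not measured binding.

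**Figure D1:**
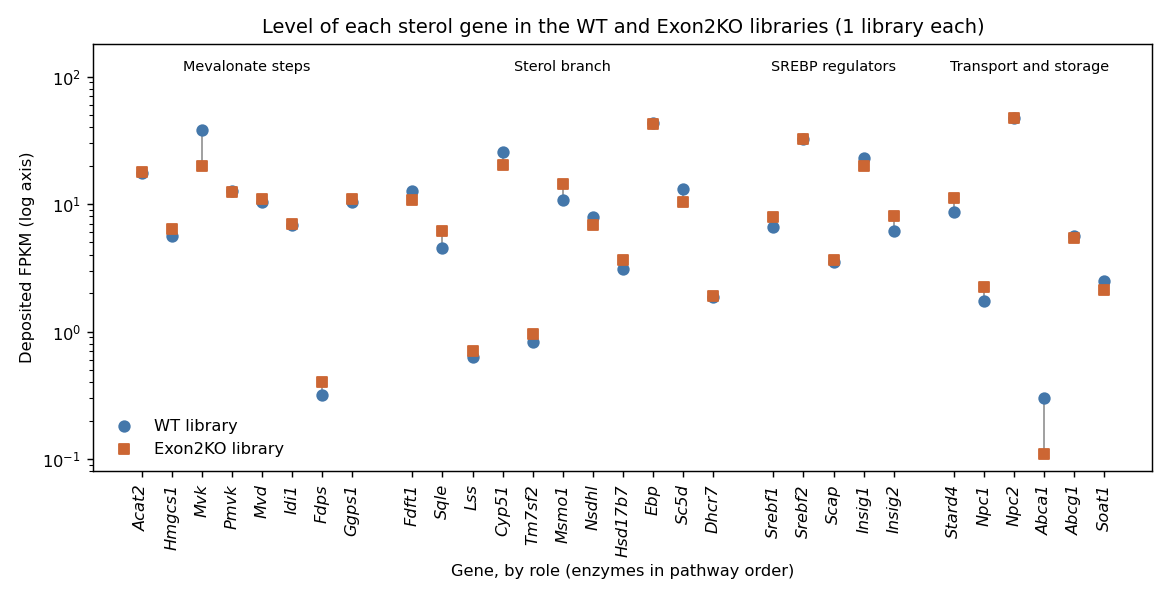
Deposited FPKM (log axis) of each of the 30 genes in the WT library (circles) and the Exon2KO library (squares), by role, with 1 library per genotype and a grey line joining the pair. Npc2 was highest at 47.5 and 47.3, Abca1 was lowest at 0.300 and 0.109, and the widest separations are those of Abca1 and Mvk.

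Levels between genes are compared in FPKM (reads adjusted for gene length and sequencing depth) as the authors deposited them. Across the 30 genes FPKM ran from 0.300 to 47.5 in WT and from 0.109 to 47.3 in Exon2KO, and the order of the genes was much the same in both (Spearman rho 0.97 over 30 genes, which share the 2 libraries and their gene lengths). The 3 genes with the highest WT levels were Npc2, a lysosomal cholesterol carrier, Ebp, the sterol isomerase, at 43.3 in WT and 42.4 in Exon2KO, and Mvk at 38.1 and 19.8. Srebf2, which encodes the SREBP of the cholesterol genes, followed at 32.4 and 32.1. At the low end were Abca1, Fdps at 0.316 and 0.403, Lss at 0.629 and 0.699 and Tm7sf2 at 0.828 and 0.955. Mvk went from rank 3 in WT to rank 6 in Exon2KO, and Sc5d from rank 8 to rank 14. Differences between neighbours in this order have no measured spread, and the deposited lengths, which equal the merged exon length in GENCODE M21 for 27 of the 30 genes, lower the FPKM of genes with long rarely used exons.

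The enzymes that carry acetyl-CoA to the isoprenoids were at nearly equal levels in the 2 libraries, apart from Mvk, which was lower, and Fdps, which had few reads. Mvk (ENSMUSG00000041939, chromosome 5, 114444269 to 114460591 on the plus strand, GRCm38) had 1606 reads in WT and 842 in Exon2KO, or 102 and 52.7 CPM. Its level was 1.94-fold lower in Exon2KO, or -0.96 on the log2 scale (95% interval -1.08 to -0.84), past 1.5-fold and just short of 2-fold. The size of this difference exceeded that of 81.2% of compared genes. In the authors' deposited table Mvk has a log2 fold change of -0.96, a p-value of 0.0221 and an adjusted p-value of 0.227, from a test whose assumptions the sources used here do not give.

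The steps on either side of Mvk did not share its difference. Hmgcs1, the HMG-CoA synthase that acts upstream of it, had 406 and 469 reads, a log2 ratio of 0.18 (-0.01 to 0.38). Pmvk, the kinase that takes the product of Mvk, had 343 and 340 reads, at -0.04 (-0.26 to 0.18). Mvd, the decarboxylase after Pmvk, had 303 and 324 reads, at 0.07 (-0.16 to 0.30). Library scaling cancels when genes are compared within a library: Mvk had 4.68 times the reads of Pmvk in WT and 2.48 times in Exon2KO, a ratio that was 1.89-fold lower (1.59 to 2.25, exact conditional interval). Against Hmgcs1 the same ratio was 2.20-fold lower (1.88 to 2.59), and against Mvd 2.04-fold lower (1.70 to 2.45). These intervals exclude equality on counting error, and the comparisons were chosen after the values were seen.

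The neighbour of Mvk was looked at because the 2 genes stand head to head, which was also a choice made after seeing the values. Mmab, a gene of cobalamin metabolism, is read in the opposite direction from a start 208 bases away, and the Mvk sequence printed above is the whole stretch between the 2 genes. Mmab had 241 reads in WT and 173 in Exon2KO, which is -0.50 on the log2 scale (-0.79 to -0.22). It was lower in the same direction as Mvk, short of 1.5-fold, and the intervals of the 2 genes do not overlap.

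Of the other enzymes of these steps, 3 were close to equal and Fdps had too few reads to tell. Acat2, the thiolase that joins acetyl-CoA units, had 707 and 718 reads, at -0.0035 (-0.16 to 0.15). Idi1, the isomerase that makes the second isoprene building block, had 380 and 388 reads, at 0.0043 (-0.20 to 0.21). Ggps1, which makes geranylgeranyl diphosphate for protein prenylation, had 779 and 820 reads, at 0.05 (-0.10 to 0.19). For these 3 genes the counting interval excludes a 1.5-fold difference in either direction. Fdps, the farnesyl diphosphate synthase, had only 21 and 27 reads, at 0.31 (-0.54 to 1.23), and this interval excludes neither equality nor a 2-fold higher level. The table also lists a processed pseudogene of Fdps with 0 reads in both libraries. How reads that fit several copies were counted is not given in the sources used here, so the Fdps value is uncertain.

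In the sterol branch, from squalene to cholesterol, enzymes differed in both directions by less than 1.5-fold. Of the 11 enzymes, 2 had counting intervals wholly above 0, 3 wholly below 0 and 6 held 0. Of the 17363 compared genes, 3968 lay wholly above 0, 4261 wholly below and 9134 held 0. Among the 12730 with at least 50 reads these were 3174, 3690 and 5866. The count is thus not particular to the branch. Sqle, the squalene epoxidase and a control point of the branch, had 398 reads in WT and 542 in Exon2KO, at 0.42 (0.23 to 0.61). Msmo1, the oxidase that starts removal of methyl groups from the ring, had 1045 and 1416 reads, at 0.41 (0.30 to 0.53). These were the highest ratios of all 30 genes, and neither reached 1.5-fold.

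Cyp51, the lanosterol demethylase, Sc5d, a desaturase of the last steps, and Fdft1, the squalene synthase, lay on the other side. Cyp51 had 1785 and 1431 reads, at -0.34 (-0.45 to -0.24). Sc5d had 1011 and 796 reads, at -0.37 (-0.51 to -0.24). Fdft1 had 838 and 720 reads, at -0.24 (-0.39 to -0.10). Enzymes of the branch thus stood in different proportions in the 2 libraries. There were 0.585 reads of Msmo1 for each read of Cyp51 in WT and 0.990 in Exon2KO, 1.69 times as many (1.52 to 1.88). The reads of Sqle per read of Fdft1, the enzymes on either side of squalene, went from 0.475 to 0.753, or 1.58 times as many (1.34 to 1.87). These comparisons were also picked after seeing the values.

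The other sterol branch enzymes had intervals that held 0. Ebp had 1578 and 1559 reads, at -0.04 (-0.15 to 0.06), the narrowest interval among them. Nsdhl and Hsd17b7, which act with Msmo1 in removing methyl groups, had 357 and 313 reads, at -0.21 (-0.44 to 0.01), and 248 and 295 reads, at 0.22 (-0.02 to 0.47). Dhcr7, the reductase of the final step, had 171 and 176 reads, at 0.02 (-0.30 to 0.33). Lss, the lanosterol synthase, had 107 and 120 reads, at 0.14 (-0.25 to 0.53), and Tm7sf2, a sterol reductase, had 73 and 85, at 0.19 (-0.27 to 0.67). Tm7sf2 overlaps Vps51 on the same strand, Fdps overlaps Gm43738 (1 and 5 reads) on the same strand, and Cyp51, Fdft1, Ggps1, Srebf1 and Npc1 each overlap a protein-coding gene on the opposite strand. Whether strand was used in counting is not given in the sources used here, so reads in those shared stretches are uncertain. The log2 ratios of the overlapping genes were -0.31 for Akap9 (over Cyp51), 0.31 for Rai1 (over Srebf1), 0.24 for Vps51 (over Tm7sf2), 0.24 for Ctsb (over Fdft1), -0.08 for Arid4b (over Ggps1) and -0.20 for Rmc1 (over Npc1). Akap9, Rai1 and Vps51 have the sign of the sterol gene they overlap and the other 3 do not, and the part of shared reads was not tested.

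**Figure D2:**
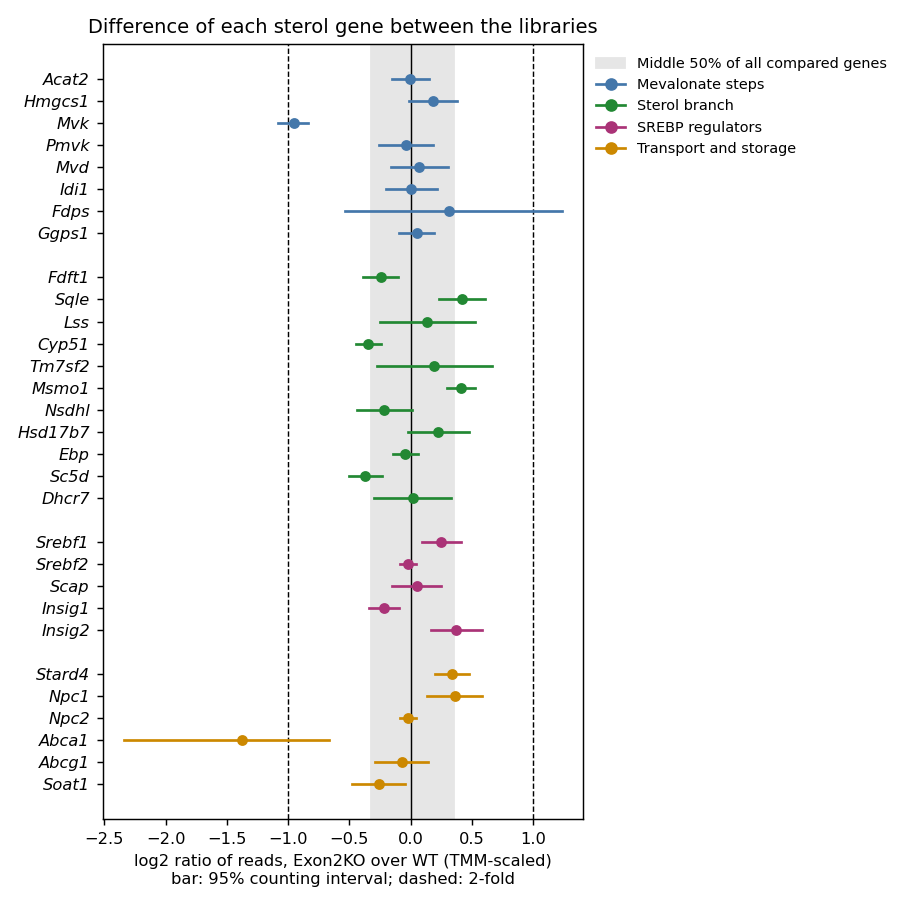
Log2 ratio of reads (Exon2KO over WT, TMM-scaled) for each gene, with 95% counting intervals as bars, colours for the 4 roles, dashed lines at 2-fold and a grey band for the middle 50% of all compared genes (-0.33 to 0.36). Mvk at -0.96 and Abca1 at -1.37 stand to the left of the other 28 genes, which lie between -0.37 and 0.42.

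Weighted by their reads, the 19 synthesis enzymes made up 0.0747% of the WT library (0.0733 to 0.0760) and 0.0738% of the Exon2KO library (0.0725 to 0.0752). After TMM scaling the summed level went from 774 to 712 CPM, a log2 ratio of -0.12 (-0.16 to -0.08). Without Mvk, the other 18 enzymes summed to 672 and 659 CPM, at -0.03 (-0.07 to 0.01). The median over the 19 enzymes was 0.02, with 11 above 0 and 8 below. As a share of all reads, without TMM, these 18 enzymes were higher in Exon2KO, at 0.0684% (0.0671 to 0.0697) against 0.0648% (0.0636 to 0.0660). The sign of the summed difference outside Mvk therefore depended on the scaling.

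The regulators of the pathway all lay within 1.5-fold, with counting intervals inside that range for all 5. Srebf2 (ENSMUSG00000022463) had 3666 reads in WT and 3669 in Exon2KO, at -0.02 (-0.09 to 0.04). Srebf1, whose SREBP isoforms also serve fatty acid synthesis, had 590 and 715 reads, at 0.25 (0.09 to 0.41). Scap, the escort of both, had 412 and 434 reads, at 0.05 (-0.15 to 0.25). In both libraries Srebf2 was the more abundant of the SREBP genes, with an FPKM 4.87 times that of Srebf1 in WT and 4.02 times in Exon2KO.

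The 2 INSIG genes lay on opposite sides of 0. Insig1, itself a target of SREBP, had 1127 and 986 reads, at -0.22 (-0.34 to -0.09). Insig2, whose RNA is less dependent on SREBP, had 337 and 444 reads, at 0.37 (0.16 to 0.58). The FPKM of Insig1 was 3.76 times that of Insig2 in WT and 2.49 times in Exon2KO. The reads of Insig1 per read of Insig2 were 1.51-fold lower in Exon2KO (1.27 to 1.78). Neither gene alone passed 1.5-fold, and this comparison was chosen after the values were seen.

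Among the transport and storage genes, Abca1, which loads cellular cholesterol onto apolipoproteins, fell. Abca1 (ENSMUSG00000015243, chromosome 4, 53030787 to 53159895 on the minus strand, GRCm38) had 49 reads in WT and 18 in Exon2KO, or 3.12 and 1.13 CPM. It was 2.59-fold lower, with a log2 ratio of -1.37, and its interval of -2.34 to -0.67 is wide because the reads are few. In the authors' deposited table Abca1 has a p-value of 0.0137 and an adjusted p-value of 0.167, the lowest among these genes, and 0 of the 30 have an adjusted p-value below 0.05 there. On the authors' FPKM with a pseudocount of 0.1 its log2 ratio was -0.93, short of 2-fold.

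Abcg1, the exporter to mature lipoproteins and, like Abca1, a target of liver X receptors, did not follow. It had 363 and 351 reads, at -0.07 (-0.29 to 0.14), and the reads of Abca1 per read of Abcg1 were 2.63-fold lower in Exon2KO (1.47 to 4.89). Other cells than T cells can express Abca1. Of the 7 myeloid markers with enough reads, 1 was at least 2-fold lower, Csf1r (14 and 6 reads, with an interval of -2.91 to 0.22), and 0 were higher. The median of the 7 was -0.05. Lyz2, at 0.33 (0.11 to 0.54), and Cd68, at 0.50 (0.22 to 0.80), were above 0, while Cd14 at -0.10, C1qa at -0.15 and C1qb at -0.05 were below 0 with intervals that held it. Of the 3 below the read minimum, Adgre1 had 1 and 2 reads, Itgam 2 and 7 and Mrc1 0 and 7. In the epithelial list 10 of 12 genes were at least 2-fold higher and 0 lower, with Fabp2 and Aqp8 at 0 reads in WT. Epcam of this list, with 782 and 609 reads, was below 0 at -0.39 (-0.54 to -0.23). Krt20 was at 0.18 (-0.54 to 0.93). Beside each of these marker counts stand 9.38% of all compared genes at least 2-fold higher and 8.14% lower. The goblet cell markers, also of the epithelium, had 1 of 7 at least 2-fold higher and 3 lower (median -0.93), with Clca1 at 105 and 7 reads, and summed to 24.5 and 23.8 CPM. Of the 8 compared markers of stroma and endothelium, 3 were at least 2-fold higher and 0 lower (median 0.22), and the whole list summed to 75.6 and 71.5 CPM, with Cdh5 at 0 reads in WT. The part of all these cells in the Abca1 difference was not tested.

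Genes that move sterol within the cell had log2 ratios between -0.26 and 0.36. Stard4, a soluble sterol carrier that is itself a target of SREBP, had 766 and 986 reads, at 0.34 (0.20 to 0.48). Npc1, the membrane protein that exports cholesterol from lysosomes, had 293 and 383 reads, at 0.36 (0.14 to 0.59). Its soluble partner Npc2 had 4077 and 4089 reads, at -0.02 (-0.08 to 0.04), the narrowest interval of the 30 genes. Soat1, the enzyme that makes cholesterol esters for storage, had 387 and 329 reads, at -0.26 (-0.48 to -0.04). The 6 transport and storage genes had a median of -0.05 and summed to 378 and 385 CPM, at 0.03 (-0.02 to 0.08).

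The summed levels of T cell and proliferation markers were lower in Exon2KO, and the Treg cell markers differed in both directions. The 12 proliferation markers summed to 663 CPM in WT and 604 in Exon2KO, with 0 past 2-fold and a median log2 ratio of -0.31. Of the 7 T cell markers 1, Cd5, was at least 2-fold lower, and their median was -0.25. Cd3g, Cd3d, Lck and Trac were below 0 with intervals that excluded it. Cd4 was above 0 at 0.20 (0.14 to 0.26), and Cd3e was nearly equal at 0.0042 (-0.05 to 0.06). Over all compared genes 8.14% were at least 2-fold lower and 9.38% higher, which also stands beside the Treg cell counts that follow. The 7 Treg cell markers had a median of -0.35, with 1 (Foxp3) at least 2-fold higher and 3 (Ikzf2, Ikzf4 and Tnfrsf18) at least 2-fold lower. Their sum was 11098 CPM in WT and 14021 in Exon2KO, a direction set by Ctla4 (5055 and 8273 CPM, at 0.71), since the other 6 summed to 6043 and 5748. The part of these shifts in the values of Mvk and of the enzymes below 0 was not tested, nor was the part of the epithelial markers in those above 0.

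**Figure D3:**
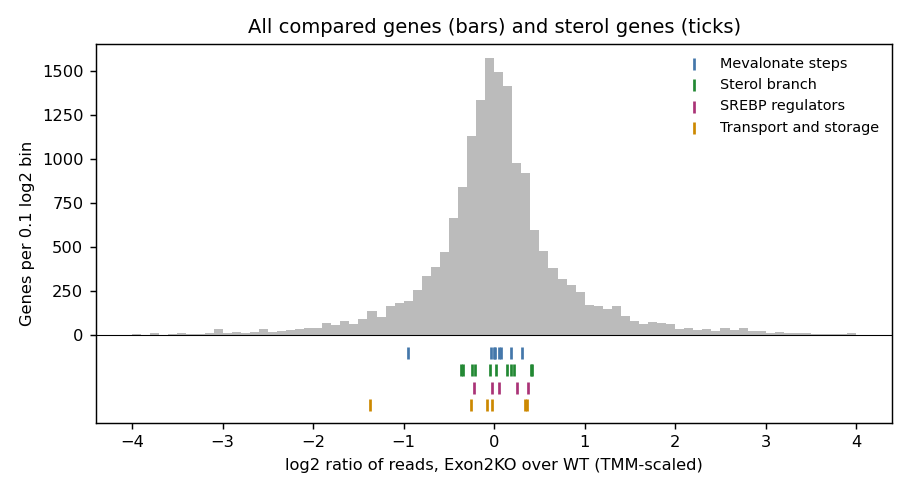
Histogram of the log2 ratio (Exon2KO over WT, TMM-scaled) of the 17363 compared genes in bins of 0.1, with ticks below it for the 30 sterol genes by role; 96 genes beyond 4 in size are off the axis. Apart from Abca1 and Mvk, the ticks lie within 0.5 of 0.

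Depth was enough to bound most of these differences on counting error. For 27 of the 30 genes the interval lay wholly within 2-fold of equality, and for 24 within 1.5-fold. Among all genes with at least 50 reads, 75.9% lay within 2-fold and 52.0% within 1.5-fold, and among the 29 sterol genes with that many reads 93.1% and 82.8%. The 3 that did not exclude 2-fold were Mvk, Abca1 and Fdps. These intervals leave out the unknown spread between mice.

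Other genes of sterol and lipid handling, in 7 lists of 80 genes with 74 compared, included 1 gene at least 2-fold higher (1.35% of those compared) and 4 at least 2-fold lower (5.41%). Over all compared genes these shares were 9.38% and 8.14%, and over genes with at least 50 reads 5.11% and 5.38%. The share higher is below both backgrounds, while the share lower is below the first and near the second. The genes named from these lists are therefore read as single genes, not as a count above the background. For fatty acid synthesis, the other branch under SREBP control, 2 of 16 genes fell past 2-fold and 0 rose, with a median of -0.31. Beside this stand 8.14% lower over all compared genes and 5.38% over those with at least 50 reads. The count is small and its excess was not tested. Elovl5, which elongates polyunsaturated fatty acids, had 9258 reads in WT and 4215 in Exon2KO, at -1.16 (-1.21 to -1.11). Elovl6, which elongates saturated and monounsaturated fatty acids, had 885 and 335 reads, at -1.42 (-1.61 to -1.24). At 1.5-fold, 5 of the 16 were lower and 1 higher, beside 15.2% and 16.8% of all compared genes. Over genes with at least 50 reads these shares were 11.7% and 10.9%. The 3 further lower genes were Mid1ip1 (-0.76), Acss2 (-0.75) and Fads1 (-0.61). Fasn, the fatty acid synthase, had 632 and 644 reads, at 0.0014 (-0.16 to 0.16), and Acly, which supplies acetyl-CoA to both branches, had 1882 and 1985, at 0.05 (-0.04 to 0.14). The intervals of these last 2 genes lay within 1.5-fold of equality.

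In the list of sterol transport, uptake and ester storage, 2 of 17 compared genes fell past 2-fold and 0 rose, with a median of -0.13. Beside this stand 8.14% lower over all compared genes and 5.38% over those with at least 50 reads. This count is also small, and its excess was not tested. Both lower genes encode GRAMD1 (Aster) proteins, which carry cholesterol from the plasma membrane to the endoplasmic reticulum. Gramd1b had 570 and 222 reads, at -1.38 (-1.62 to -1.16), and Gramd1c had 144 and 56 reads, at -1.36 (-1.86 to -0.93). The third gene of the family, Gramd1a, was the most abundant by reads, with 2259 and 1980, at -0.22 (-0.30 to -0.13). The summed reads of the family were therefore held mainly by the member that differed least.

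In the list of isoprenoid use, Pdss2, a subunit of the enzyme that makes the tail of coenzyme Q, rose from 49 to 131 reads, at 1.36 (0.91 to 1.90). Its partner subunit Pdss1 had 194 and 204 reads, at 0.05 (-0.24 to 0.34), and 0 of the other 11 genes of this list passed 2-fold. Also 0 genes passed 2-fold among the 10 of SREBP processing and turnover (median -0.07), the 9 compared of the liver X receptor list (0.01), the 8 helpers of sterol synthesis (-0.19) and the 2 compared of oxysterol metabolism (-0.84).

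**Figure D4:**
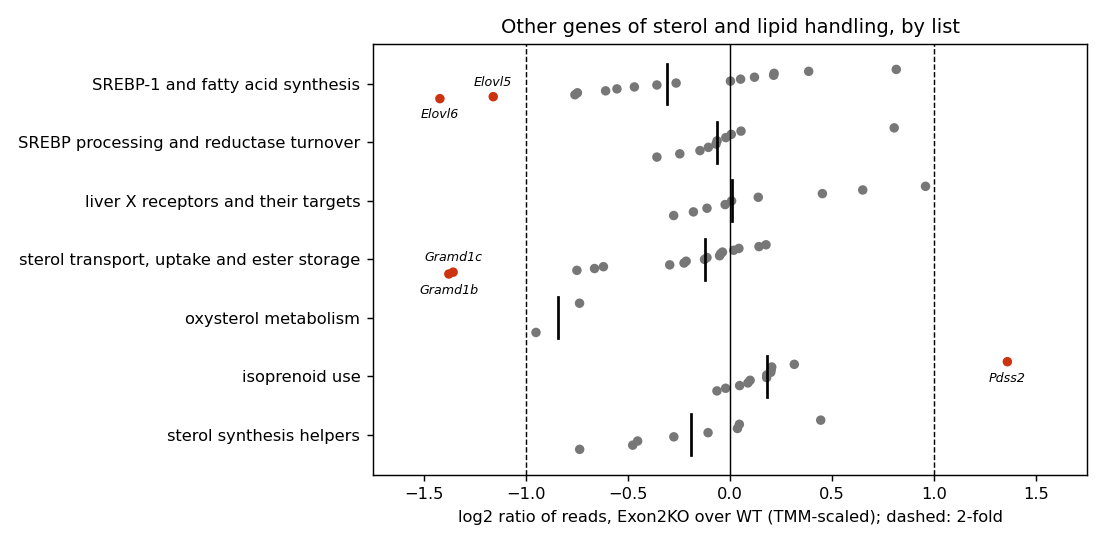
Log2 ratio of reads (Exon2KO over WT, TMM-scaled) of the 74 compared genes in 7 lists of sterol and lipid handling, with a black bar at each list's median and dashed lines at 2-fold. Red points are the 5 genes past 2-fold with at least 100 reads in 1 library: Elovl5, Elovl6, Gramd1b and Gramd1c below and Pdss2 above.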

How the data were processed

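The authors deposited 1 table with read counts per gene and FPKM for 1 WT and 1 Exon2KO library of colonic Treg cells. The submitters' processing notes name HISAT2 2.0.5, StringTie 1.3.3b, featureCounts 1.5.0-p3, DESeq2 1.16.1 and the build mm10, without saying what each did. The deposited scaled count signal was not used; the deposited log2 fold change and p-value columns are quoted only where named. Coordinates are as deposited, and 27 of the 30 genes have identical ones in GENCODE M21 (GRCm38).

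Library sizes were multiplied by TMM factors (0.964 for WT, 1.04 for Exon2KO), computed over genes with at least 10 reads (edgeR 4.0.16, R 4.3.3). A quasi-likelihood test could not be fitted with 1 library per genotype. Ratios used a prior count of 2, and intervals are exact binomial (scipy 1.17.1, Python 3.11.15). The ratio and interval code was tested on simulated data. Alternatives were other scalings (including DESeq2 1.42.0 size factors), prior counts, read minimums and FPKM.

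The 30 genes and all lists were chosen with earlier results of these data known. Every one of the 30 is named; from the 7 lists, genes past 2-fold with at least 100 reads in 1 library are named, and any others were chosen after their values were seen.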

Additional observations from a re-analysis of the deposited data

How the results depend on the processing

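Of 210 ratios of the 30 genes recomputed under 7 alternative settings, 206 stayed within the counting interval of the value given, and no gene past 1.5-fold changed sign. Total counts without TMM shifted the median log2 ratio of all compared genes from 0.0045 to 0.11. That shift turned the sign of 6 genes within 0.08 of 0 (Abcg1, Acat2, Ebp, Npc2, Pmvk and Srebf2) and of the transport and storage median (0.06). Mvk ranged from -0.96 to -0.85 and Abca1 from -1.45 to -0.93. With the deposited FPKM and a pseudocount of 0.1, the number of transport and storage genes at least 2-fold lower was 0 in place of 1, because the pseudocount is close to the level of Abca1. In the other 140 of 141 recomputations, counts stayed within 1.5 times, summed shares within their counting interval, and medians moved by less than the median half-width of their genes' counting intervals. That tolerance lets a median near 0 change sign, and it covers the synthesis median, which went from 0.02 to 0.12 with total counts. For Elovl5, Elovl6, Gramd1b, Gramd1c, Pdss2 and Mmab, recomputed after seeing the data, no direction changed, and the first 5 stayed past 2-fold. Over all genes, 1629 were at least 2-fold higher and 1413 lower. Without a read minimum these were 2644 and 2844, and with at least 50 reads 650 and 685, as 24333 and 12730 genes were then compared. No paired analysis was possible because each genotype has 1 library, and for the same reason none could be left out.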

Other observations

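Of the 74 compared genes in the 7 lists of sterol and lipid handling, 13 (17.6%) were at least 1.5-fold lower and 5 (6.76%) higher. Beside these stand 15.2% and 16.8% of all compared genes, and 11.7% and 10.9% of those with at least 50 reads. Between 1.5-fold and 2-fold lay 9 lower genes (Mid1ip1, Acss2, Fads1, Scarb2, Osbpl5, Soat2, Gpr183, Ch25h and Por) and 4 higher genes (Gpam, Mbtps2, Arl4c and Pltp). The 6 of these described here were picked after their values were seen. Por, the reductase that passes electrons to Cyp51 and Sqle, had 1444 reads in WT and 881 in Exon2KO, which is -0.74 on the log2 scale (95% counting interval -0.86 to -0.62). Gpr183, a receptor for oxysterols that guides lymphocyte migration, had 6127 and 3225 reads, at -0.95 (-1.01 to -0.89). Ch25h, which makes an oxysterol precursor of its ligands, had 39 and 23 reads, at -0.74 (-1.60 to -0.01). Scarb2, a lysosomal membrane protein, had 563 and 372 reads, at -0.62 (-0.82 to -0.43).

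On the other side, Arl4c, a small GTPase gene that liver X receptors switch on, had 372 and 737 reads, at 0.96 (0.78 to 1.14). It was higher where Abca1, another gene driven by these receptors, was lower and Abcg1 was nearly equal. Mbtps2, the protease that makes the second cut in SREBP, had 56 and 101 reads, at 0.80 (0.34 to 1.32). Its partner Mbtps1 had 782 and 826 reads, at 0.05 (-0.09 to 0.20). These values come from 1 library per genotype and have no replicate check.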
